A study of Mus musculus with 6 samples.

Results

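RNAs recovered with an antibody against YTHDF2 were compared with RNAs recovered with an antibody against YTHDF1, by RNA immunoprecipitation followed by sequencing (RIP-seq) of granule cells (GCs) from the cerebellum of Wildtype C57BL/6 mice at post natal day 8. The study made 6 libraries, 2 with the antibody labelled Anti-YTHDF1, 2 with the antibody labelled anti-YTHDF2 and 2 from unselected lysate (input). All of them share genotype, strain and age, and the 4 RIP libraries compared here differ by label only in the antibody and the replicate number. Each YTHDF2 RIP library was set against the YTHDF1 RIP library with the same number (pair 1 and pair 2). Values were FPKM (sequenced fragments per kilobase of a transcript, relative to the total mapped in a library). Of 52550 gene IDs, 11064 averaged 1 FPKM or more across these 4 libraries and were compared on log2(FPKM + 1). Protein-coding genes numbered 9805. A positive difference is a higher value in the YTHDF2 RIP. The GCs were dissociated from whole cerebellum, and each protein was recovered with its own polyclonal antibody, so that the protein and the properties of its antibody cannot be told apart. No library of a nonspecific antibody was analysed here.

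YTHDF1 and YTHDF2 are cytoplasmic proteins whose YTH domain binds N6-methyladenosine (m6A), a modified base of mRNA. YTHDF2 is best known for bringing its mRNAs to the deadenylation machinery and so to decay, and YTHDF1 for raising their translation, although shared roles of these readers have also been described. GCs are the small excitatory neurons of the cerebellum, and in the second postnatal week their precursors divide at the surface while newly formed neurons extend axons.

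The libraries differed more by replicate number than by antibody. Across the tested genes the log2 values of the YTHDF1 RIP replicates correlated at 0.79 and those of the YTHDF2 RIP replicates at 0.82, whereas the libraries of pair 1 correlated at 0.93 and those of pair 2 at 0.85. The deviations of the replicates from their group means ran together in both RIPs, with a correlation of 0.68 across genes. The number of genes at 1 FPKM or more ranged over the RIP libraries from 9503 to 12627, and the reads behind these values are unknown in number. The median of all genes was itself above 0, by 0.07 in pair 1 and by 0.39 in pair 2, and it was 0.23 for the mean of the pairs. AY036118, a long noncoding gene on chromosome 17, stood apart in 1 library. It was listed at 0.312 FPKM in YTHDF1 RIP replicate 2 and between 173364 and 410702 FPKM in the other 5 libraries, where it took a large part of the summed values. It lies (39847113 to 39848035, GRCm38, minus strand) within the rRNA gene CT010467.1 (39846353 to 39848827, same strand), which was highest in that same library, at 219081 FPKM against 26343 to 118125 FPKM in the others. Whether the 0.312 is a failed estimate cannot be told from the values, and the part of this locus in the median of pair 2 was not tested. All 18 granule cell markers above the filter were present in each RIP library. The sums over all 22 listed markers were 918 and 619 FPKM in the YTHDF1 RIP (replicates 1 and 2). In the YTHDF2 RIP these sums were 1049 and 1249 FPKM.

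RNAs higher in the YTHDF2 RIP outnumbered those that were lower in the values as deposited. The higher ones included Pcdhgb8, the mRNAs of Lrrc47, Reep3 and Sept3 and a few Cajal body RNAs. The lower ones included ribosomal protein mRNAs such as Rps6, snoRNAs, copies of the spliceosomal RNAs U1 and U2 and signal recognition particle RNA. At least 1 log2 unit separated the antibodies in the same direction in both pairs for 183 genes that were higher (1.65% of those tested) and 37 that were lower (0.334%). Both YTHDF2 RIP libraries lay above both YTHDF1 RIP libraries in 2462 genes (22.3%) and below both in 879 (7.94%). With limma on the 4 libraries and the replicate number as a block, 364 genes passed a Benjamini-Hochberg adjusted p under 0.05, 284 of them higher (2.57%) and 80 lower (0.723%). Protein-coding genes made up 239 of the higher and 19 of the lower ones, and the 1259 other genes held 45 higher and 61 lower.

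These calls rest on the pairing. The fit has 1 residual degree of freedom, limma gave every gene the common spread of genes at its level, and a gene's own disagreement between pairs carried no weight. Of the 364 genes, 11 did not move the same way in both pairs, AY036118 among them. The prior degrees of freedom of limma were infinite in this fit and finite in the next ones, where a gene's own spread did count. Without the replicate block (6.159) no gene passed in limma (unadjusted p under 0.05 in 135 higher and 50 lower genes). With the input libraries added (11.17 with the block) 1 gene passed, Pcdhgb8. Single RIP libraries were left out of this last form of fit, which itself gave 1 call, so these counts are not to be read against the 364. The lone library of an antibody is then assumed to vary like the other groups. In limma 2 genes passed without YTHDF1 RIP replicate 1, none without its replicate 2 (unadjusted p under 0.05 in 165 higher and 66 lower genes), 128 without YTHDF2 RIP replicate 1 and 24 without its replicate 2. The surplus of higher calls, 78% of the total, was 50.7% of 221 calls after median-of-ratios scaling, 33.3% of 6 calls when values were scaled to nuclear protein-coding genes, and 91.4% of 467 calls after a correction for GC content and length. An exact paired test of a single gene cannot give a p below 0.5 with 2 pairs. Nothing in the labels says that the replicates came from separate animals or cultures, so the p-values cover no more than the variation among these libraries. In such bulk lysates a difference in cell make-up and a difference in RNA per cell cannot be told apart.

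**Figure D1:**
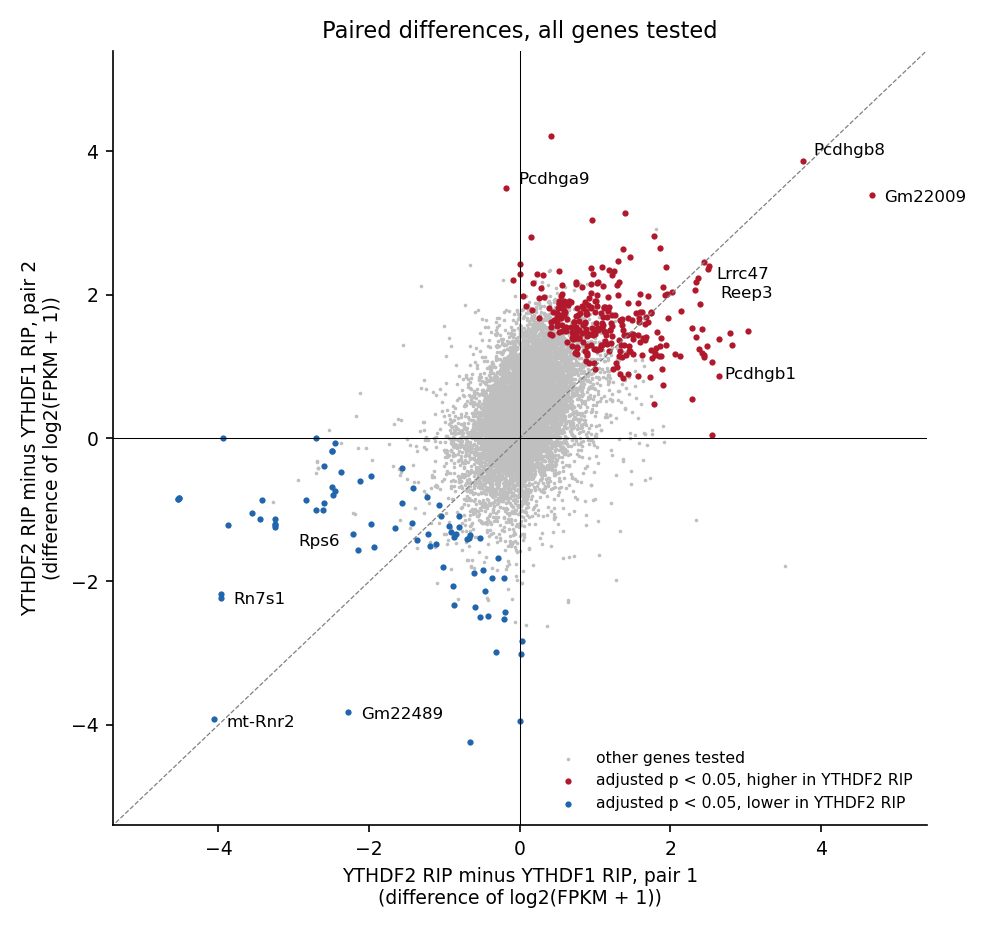
Difference between YTHDF2 RIP and YTHDF1 RIP on log2(FPKM + 1) in pair 1 (horizontal axis) and pair 2 (vertical axis) for the genes tested, with genes past an adjusted p of 0.05 in limma in red (higher) and blue (lower). Pcdhgb8, Lrrc47 and mt-Rnr2 lie near the dashed line of equal differences, Pcdhga9 moved in pair 2 alone, and 4 genes lie outside the axes (AY036118, Gm23262, Hist2h2aa2 and Mir8114).

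Ranked by the smaller of the paired differences, the first gene higher in the YTHDF2 RIP was Pcdhgb8, which lies in the gamma protocadherin cluster of chromosome 18 and is annotated as a polymorphic pseudogene. It was listed at 0.337 and 0.272 FPKM in the YTHDF1 RIP, at 17.2 and 17.5 FPKM in the YTHDF2 RIP, and at 0.169 and 0.219 FPKM in the input (replicates 1 and 2). The YTHDF2 RIP libraries thus stood apart from the other 4, by 51.0-fold over the YTHDF1 RIP in pair 1 and 64.3-fold in pair 2. The difference was 3.81 ± 0.34 (SE) with an adjusted p of 4.22e-25 in limma, and it passed in 12 of 13 alternatives, with adjusted p from 4.48e-38 to 0.167, the last of them without the replicate block. In the fits that left out YTHDF1 RIP replicate 1 or 2 it did not pass (adjusted p 0.274 and 0.727), with differences of 3.87 and 3.76. Clustered protocadherins are cell surface proteins that share constant exons and differ in a first variable exon, so how reads were divided among them decides the value of each. Of the 21 gamma genes tested, which were singled out after the values of Pcdhgb8 were seen, 4 passed and 16 were positive in both pairs, with a median of 0.56. Over all genes 2.57% were called higher, 5563 of 11064 were positive in both pairs, and the median was 0.23. Pcdhga8 was 0.0649 and 0.777 FPKM in the YTHDF1 RIP and 2.95 and 2.46 FPKM in the YTHDF2 RIP, with no overlap. Like Pcdhgb8, it was under 1 FPKM in both YTHDF1 RIP libraries and passed the filter through the YTHDF2 RIP alone. Among such low genes the filter itself favours this direction. Pcdhgb1 was 4.31 and 1.79 FPKM against 30.04 and 4.80 FPKM. Pcdhga9 moved in pair 2 alone, from 2.46 to 37.7 FPKM, and was 1.17 against 0.903 FPKM in pair 1.

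Among protein-coding genes, the 12 ranked highest by their smaller paired difference were Lrrc47, Reep3, Sept3, Selenot, Coa5, Fam219a, Cog7, Rab8b, Gid4, Mydgf, Spop and Wasf3, and all of them passed. Lrrc47, a leucine-rich repeat gene (chromosome 4, 154011731 to 154021513, GRCm38), gave 13.7 and 17.3 FPKM in the YTHDF1 RIP and 79.0 and 99.2 FPKM in the YTHDF2 RIP, against 4.95 and 5.12 FPKM in the input. Both YTHDF2 RIP libraries were about equally far above their partners, 5.79-fold in pair 1 and 5.73-fold in pair 2. The difference was 2.45 ± 0.51 (SE, adjusted p 0.00042). Reep3, which shapes the endoplasmic reticulum (ER), was 1.82 and 4.72 FPKM in the YTHDF1 RIP, below its input of 12.2 and 11.3 FPKM, and 14.98 and 28.4 FPKM in the YTHDF2 RIP, above it. This was a difference of 2.43 ± 0.39 (adjusted p 4.28e-07), which also passed after median-of-ratios scaling (adjusted p 0.00374). Selenot, an ER selenoprotein, was 1.12 and 10.5 FPKM against 9.78 and 51.3 FPKM. The replicate 2 libraries of Selenot were the higher ones with both antibodies, so that YTHDF1 RIP replicate 2 overlapped the YTHDF2 RIP although each pair differed by over 2 log2 units.

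The same pattern of high replicate 2 libraries and like paired differences held for several other genes of this group. Sept3, a neuronal septin, was 48.1 and 142 FPKM in the YTHDF1 RIP and 251 and 666 FPKM in the YTHDF2 RIP. Coa5, an assembly factor of cytochrome c oxidase, was 1.46 and 7.12 FPKM against 11.3 and 32.9 FPKM. In neither gene did the antibodies overlap. Cog7, a subunit of a Golgi tethering complex, was 8.42 and 20.2 FPKM against 35.6 and 84.1 FPKM, and Rab8b, a small GTPase of vesicle transport, was 3.53 and 11.7 FPKM against 16.4 and 65.2 FPKM. The YTHDF2 RIP was higher by 4.23-fold and 4.17-fold for Cog7 and by 4.64-fold and 5.57-fold for Rab8b. Gid4 and Spop are substrate receptors of ubiquitin ligases, and Wasf3 promotes actin branching. Gid4 was 6.24 and 14.7 FPKM against 26.4 and 61.6 FPKM, Spop was 13.1 and 58.8 FPKM against 72.5 and 217 FPKM, and Wasf3 was 5.85 and 21.9 FPKM against 23.9 and 142 FPKM. All 3 rose, with differences of 1.96 to 2.25. Spop and Sept3 lost their calls in limma after median-of-ratios scaling (adjusted p 0.0668 and 0.107). The secreted factor Mydgf (4.35 and 5.27 against 19.0 and 25.9 FPKM) and Fam219a (6.98 and 9.23 against 31.3 and 40.9 FPKM) were close between replicates and separated between antibodies.

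**Figure D2:**
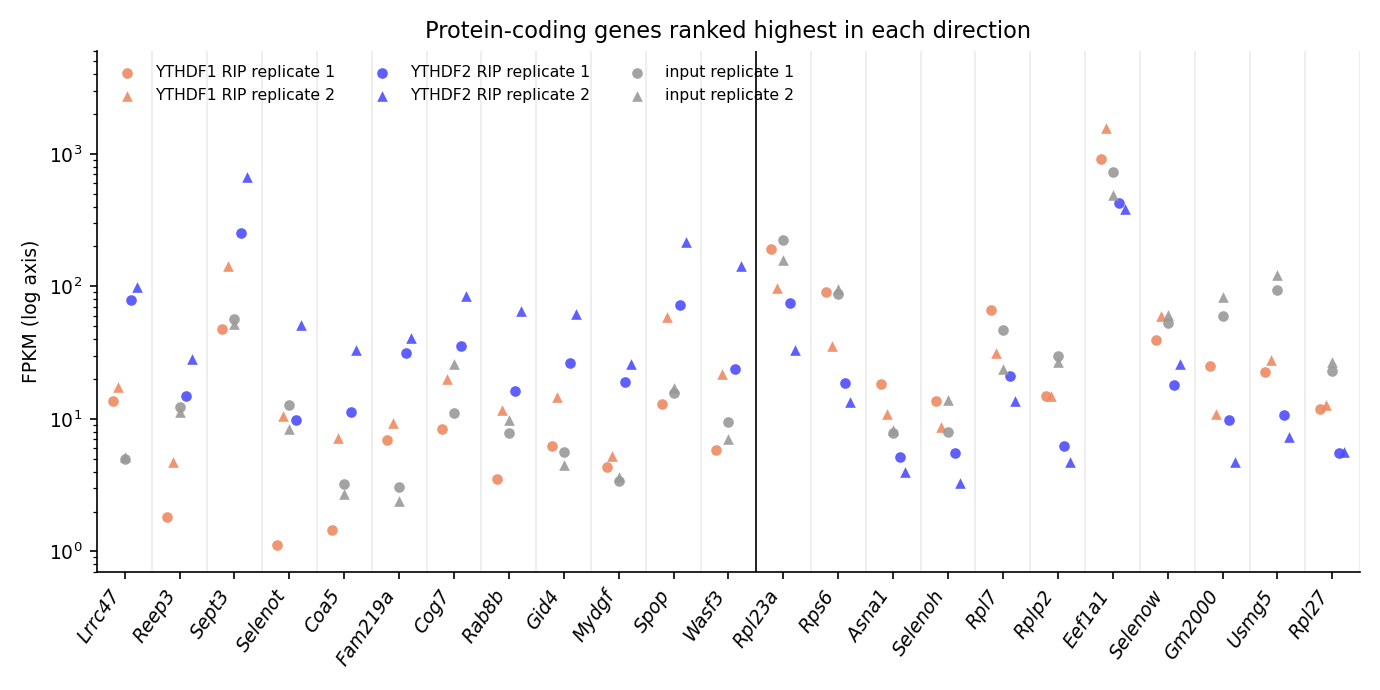
FPKM on a log axis in each of the 6 libraries for protein-coding genes among the 12 ranked highest in each direction, higher in the YTHDF2 RIP left of the black line and lower right of it (circles replicate 1, triangles replicate 2). On the left the blue YTHDF2 RIP symbols lie above the orange YTHDF1 RIP symbol of the same shape, as for Lrrc47 at 79.0 and 99.2 against 13.7 and 17.3, and on the right they lie below it, as for Rps6 at 18.6 and 13.5 against 90.0 and 35.6.

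Fewer protein-coding genes passed as lower in the YTHDF2 RIP. Among the 12 protein-coding genes ranked highest in this direction were Rpl23a, Rps6, Asna1, Selenoh, Rpl7, Rplp2, Eef1a1, Selenow, Gm2000, Usmg5 and Rpl27, of which Rps6, Asna1, Rplp2 and Usmg5 passed. Rps6, of the small ribosomal subunit, was 90.0 and 35.6 FPKM in the YTHDF1 RIP and 18.6 and 13.5 FPKM in the YTHDF2 RIP, with 88.1 and 95.2 FPKM in the input. The antibodies did not overlap, and the difference was -1.78 ± 0.49 (adjusted p 0.0167). A processed pseudogene of it, Rps6-ps4, gave 65.7 and 27.6 FPKM against 14.02 and 8.65 FPKM, and near-identical copies of this kind may share reads. Asna1, an ATPase that delivers tail-anchored proteins to the ER, was 18.4 and 10.9 FPKM in the YTHDF1 RIP and 5.17 and 3.99 FPKM in the YTHDF2 RIP, a difference of -1.45 ± 0.39 (adjusted p 0.0126). Eef1a1, the elongation factor that carries tRNA to the ribosome, was 907 and 1573 FPKM against 423 and 387 FPKM, again without overlap, but its difference of -1.56 ± 0.79 did not pass (adjusted p 0.281). The selenoproteins differed in direction: beside the rise of Selenot, Selenow was 39.1 and 60.02 FPKM against 18.1 and 25.8 FPKM and Selenoh 13.7 and 8.68 FPKM against 5.49 and 3.28 FPKM, and neither passed (adjusted p 0.205 and 0.0506).

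The cytosolic ribosomal protein mRNAs had mostly negative differences. Of 79 tested, 66 were negative in both pairs and none was positive in both, against 5563 positive and 1854 negative of all 11064 genes. Their median was -0.60, and it was -0.55 in pair 1 and -0.65 in pair 2, which is 0.83 below the median of all genes. Rps6 and Rplp2 passed, beside the 0.723% of all genes that passed as lower, and 5 members were at least 1 log2 unit lower in both pairs. For oxidative phosphorylation subunits encoded in the nucleus the median was -0.32 with 44 of 72 negative in both pairs, and proteasome subunits a median of -0.26 with 19 of 31 negative in both. With limma no member of these latter lists passed in either direction (unadjusted p under 0.05 in 5 lower subunits of oxidative phosphorylation, 3 lower proteasome subunits and 0 higher of either), and the medians of all 3 lists stayed below 0 under each of the 3 other scalings. These are short mRNAs, with a median length of 914 nt in the ribosomal protein list, and short mRNAs in general had lower differences. Relative to the median of genes in the same of 10 groups by length, the medians were -0.48 for ribosomal proteins, -0.18 for oxidative phosphorylation and -0.23 for the proteasome.

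Noncoding host transcripts of small nucleolar RNAs (snoRNAs) were lower as well. These genes, the Snhg family and Gas5, carry snoRNAs in their introns. All 7 tested were negative in both pairs, with a median of -0.86, and Snhg5 and Snhg12 passed. Over all genes 1854 of 11064 were negative in both pairs and 0.723% passed as lower. Snhg5 was 8.94 and 11.2 FPKM in the YTHDF1 RIP, 2.87 and 3.58 FPKM in the YTHDF2 RIP, and 10.1 and 6.89 FPKM in the input. Its YTHDF2 RIP libraries were the lowest of the 6, at 0.320 and 0.319 times their partners, and the difference was -1.39 ± 0.36 (adjusted p 0.0106). Snhg12 was 3.48 and 3.22 FPKM against 0.901 and 1.38 FPKM (-1.03 ± 0.31, adjusted p 0.0348). Gas5 was 6.00 and 6.70 FPKM against 2.197 and 3.82 FPKM, which did not overlap and did not pass (adjusted p 0.13).

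The small RNAs themselves moved in both directions. The box C/D RNAs whose values are given below are printed to show their sequence and place in their hosts. Box C/D RNAs guide ribose methylation and are recognised by their box C and box D motifs. Below, each is printed 5′ to 3′ as the DNA letters of its GENCODE transcript, with TGATG of box C and CTGA of box D in capitals.
Scarna9: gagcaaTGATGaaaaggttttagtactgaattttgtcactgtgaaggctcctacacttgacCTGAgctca
Gm24339: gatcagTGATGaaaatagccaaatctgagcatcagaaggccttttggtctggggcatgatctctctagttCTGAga
Gm22489: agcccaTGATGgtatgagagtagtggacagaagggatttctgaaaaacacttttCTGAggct
Snord80: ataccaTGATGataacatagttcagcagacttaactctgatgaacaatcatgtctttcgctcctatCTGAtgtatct
Snord34: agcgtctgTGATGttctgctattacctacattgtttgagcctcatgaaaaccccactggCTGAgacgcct

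Searched on the transcript strand, TGATG occurs in 35.9% of the 1507 snoRNA transcripts of the annotation, CTGA in 79.5% and both in 33.0%. A match is a description of these letters. Scarna9 (chromosome 9, 15326264 to 15326333) and Gm24339 (15326464 to 15326539) lie on the minus strand inside Cep295, 130 bases apart, and Snord34 (chromosome 7, 45126601 to 45126670) lies inside the ribosomal protein gene Rpl13a. Gm22489 (chromosome 1, 161035850 to 161035911) and Snord80 (161037604 to 161037680) lie on the plus strand inside Gas5. Snord80, Snord34 and Cep295 were singled out after their values were seen, so the shared sign of RNAs of 1 host is a description.

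Both snoRNA genes annotated inside Cep295 had higher values in the YTHDF2 RIP in each pair, and Scarna9 passed. Scarna9 was 6.83 and 87.5 FPKM in the YTHDF1 RIP and 37.0 and 256 FPKM in the YTHDF2 RIP (1.91 ± 0.53, adjusted p 0.0187). Gm24339 was 243 and 714 FPKM against 856 and 5413 FPKM (2.37 ± 0.82, adjusted p 0.0788). The replicate 2 libraries were the higher ones with each antibody, and only Scarna9 overlapped. The host Cep295 was at 0.428 and 0.954 FPKM against 0.634 and 3.93 FPKM (adjusted p 0.138). Among further Cajal body RNAs, which guide modification of spliceosomal RNAs, Gm22009 and Scarna2 pointed the same way. Gm22009, inside the importin gene Kpna4, was 146 and 207 FPKM in the YTHDF1 RIP, 3749 and 2171 FPKM in the YTHDF2 RIP and 578 and 744 FPKM in the input (4.03 ± 0.79, adjusted p 0.000149). Its YTHDF1 RIP libraries were below input and its YTHDF2 RIP libraries above it. Scarna2 was 94.3 and 425 FPKM against 542 and 2251 FPKM (2.46 ± 0.75, adjusted p 0.0363). After median-of-ratios scaling Scarna2 and Scarna9 lost their calls in limma (adjusted p 0.151 and 0.0895). Of the 18 tested genes annotated as Cajal body RNAs 4 rose and none fell in limma (unadjusted p under 0.05 in 4 and 1). Over all genes 2.57% were called higher and 0.723% lower. Of these 18 genes, 5 were positive and 6 negative in both pairs, and their median was 0.01, beside 0.23 for all genes.

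Of 10 snoRNA genes annotated inside Gas5, 4 were above the filter, and all 4 were negative in both pairs and fell. Of 4 inside Rpl13a, 3 were above the filter and negative in both pairs, and Snord34 fell. Among all tested genes 1854 of 11064 were negative in both pairs. Gm22489 was 10.8 and 15.2 FPKM in the YTHDF1 RIP, 1.44 and 0.142 FPKM in the YTHDF2 RIP, and 1.99 and 0.0842 FPKM in the input. The YTHDF1 RIP libraries stood above the other 4, and the difference of -3.05 ± 0.34 (adjusted p 7.96e-16) passed in 10 of 13 alternatives, with adjusted p up to 0.996. Snord80 was 6.40 and 9.06 FPKM against 0.943 and 2.51 FPKM (adjusted p 0.000149), and Snord34 was 2.197 and 1.66 FPKM against 0.550 and 0.251 FPKM (adjusted p 0.0176). Snord34 was under 1 FPKM in both YTHDF2 RIP libraries and passed the filter through the YTHDF1 RIP alone, which favours its direction. Among box H/ACA RNAs, which guide pseudouridylation, Snora52 was 2.82 and 11.8 FPKM against 1.07 and 2.07 FPKM. It lies inside Rplp2, a ribosomal protein gene that fell too (14.8 and 15.01 against 6.30 and 4.72 FPKM). Over all 152 tested snoRNA genes 16 fell and 3 rose, with a median of -0.13, beside 0.723% and 2.57% of all genes. Transcripts of this size are shorter than typical library fragments, Snord80 overlaps a second gene ID of the same symbol, and reads of host introns may be counted for them, so their FPKM values are uncertain.

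**Figure D3:**
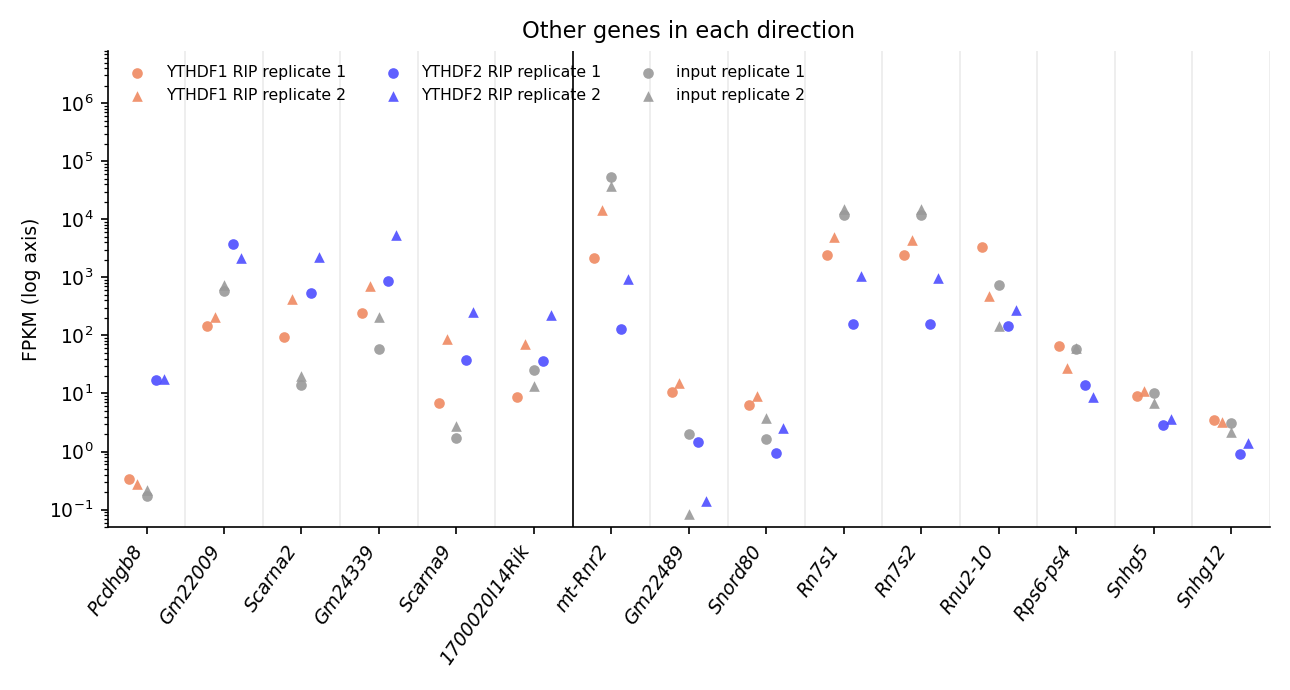
FPKM on a log axis in each of the 6 libraries for genes other than protein-coding ones, higher in the YTHDF2 RIP left of the black line and lower right of it (circles replicate 1, triangles replicate 2). Pcdhgb8 is near 17 FPKM in the YTHDF2 RIP alone, Gm22009 has the YTHDF1 RIP below and the YTHDF2 RIP above the grey input symbols, and mt-Rnr2 and Rn7s1 are highest in input, lower in the YTHDF1 RIP and lowest in the YTHDF2 RIP.

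Several abundant structural RNAs were lower in the YTHDF2 RIP than in the YTHDF1 RIP. The mitochondrial large ribosomal RNA mt-Rnr2 was 2175 and 14323 FPKM in the YTHDF1 RIP, 129 and 949 FPKM in the YTHDF2 RIP, and 54515 and 36744 FPKM in the input. Both antibodies were below input in every replicate, and the YTHDF2 RIP was 0.0595 and 0.0663 times its partner (-3.99 ± 0.86, adjusted p 0.000901). The small one, mt-Rnr1, was 1653 and 2330 FPKM against 170 and 1256 FPKM, and its difference did not pass (adjusted p 0.145). Mitochondrial mRNAs had values closer to each other in the 2 RIPs. For mt-Co1, singled out after its values were seen, the YTHDF1 RIP gave 55.2 and 534 FPKM and the YTHDF2 RIP 52.2 and 486 FPKM, with adjusted p 0.951. The median of the 15 mitochondrially encoded mRNAs and ribosomal RNAs was 0.00, and -0.26 and -0.29 after scaling to nuclear protein-coding genes and by median of ratios.

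The 7SL RNA of the signal recognition particle and the U2 RNA of the spliceosome were also lower. Rn7s1 was 2471 and 4878 FPKM in the YTHDF1 RIP and 157 and 1041 FPKM in the YTHDF2 RIP, against 11667 and 15290 FPKM in the input, and its near-identical copy Rn7s2 gave 2476 and 4464 FPKM against 157 and 989.5 FPKM. Neither overlapped, and the differences were -3.10 ± 0.84 and -3.07 ± 0.84 (adjusted p 0.0154 and 0.0161). Both lost their calls in limma after median-of-ratios scaling (adjusted p 0.0728 and 0.0737). All 11 tested copies with the length of the U2 gene Rnu2-10 (191 nt) were negative in both pairs and passed. In Rnu2-10 the values were 3299 and 484 FPKM in the YTHDF1 RIP and 143 and 270 FPKM in the YTHDF2 RIP, with 736 and 148 FPKM in the input. YTHDF1 RIP replicate 1 was high and the other libraries were between 143 and 736 FPKM, so most of the mean difference came from pair 1 (-4.52 against -0.84 in pair 2). Of 16 copies with the lengths of the U1 genes Rnu1a1 and Rnu1b1 (164 and 165 nt), 9 fell, again with a larger median in pair 1 (-2.60) than in pair 2 (-0.53). These copies share sequence and are not separate measurements. The 69 tested small nuclear RNA genes of other lengths had a median of 0.01, with 1 that rose and 2 that fell. Of them 16 were positive and 23 negative in both pairs. Over all genes 2.57% were called higher and 0.723% lower.

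Transcript length ran with the difference in both pairs. Over the 9805 protein-coding genes the Spearman correlation across genes of the difference with the length of the longest annotated transcript was 0.49 (0.37 in pair 1 and 0.47 in pair 2), given as a description since genes share libraries. In 10 groups of like size, the shortest genes (204 to 1374 nt) had a median of -0.18 and the longest (7169 to 27908 nt) a median of 0.54. Genes that passed as higher had a median length of 4650 nt, those that passed as lower 1000 nt, and all protein-coding genes 3428 nt. The length of the 3′ untranslated region correlated at 0.45 and that of the coding sequence at 0.25, and the median 3′ untranslated region was 2679 nt in the higher genes against 1302 nt in all. GC content correlated at -0.15. The density of GGACT on the transcript strand, a frequent form of the m6A consensus, correlated at -0.02 and had a median of 0.905 per kb in the higher genes and 1.04 per kb in all. How far size selection, fragmentation or the FPKM calculation contributed to the length relation was not tested.

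**Figure D4:**
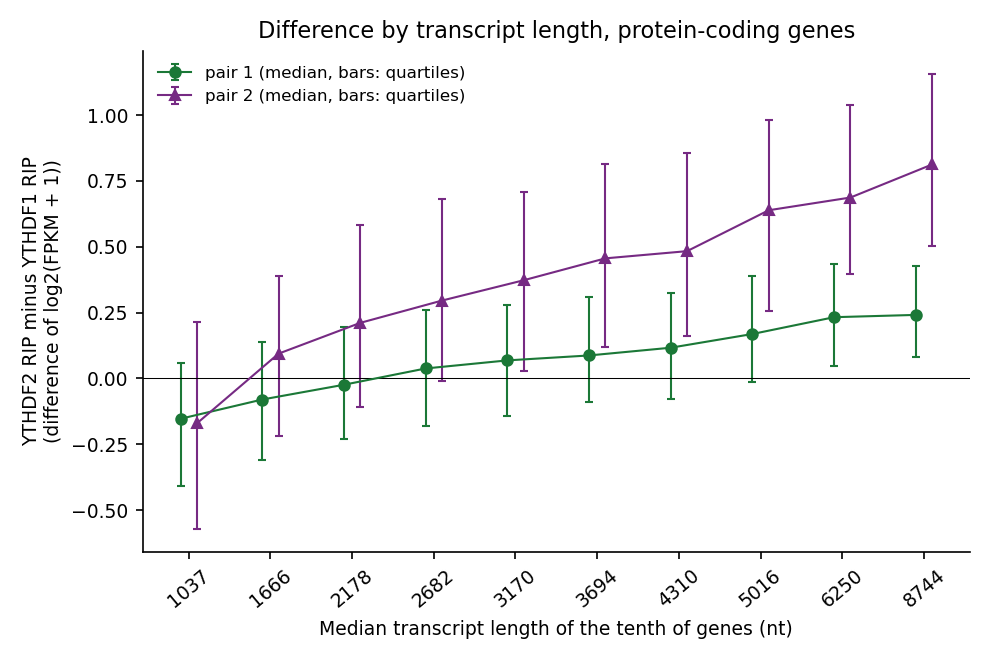
Median difference between YTHDF2 RIP and YTHDF1 RIP on log2(FPKM + 1) for protein-coding genes in 10 groups of like size by transcript length (labels: median length in nt), for pair 1 (green circles) and pair 2 (purple triangles), with bars from the lower to the upper quartile. Both lines rise with length, from -0.15 to 0.24 in pair 1 and from -0.17 to 0.81 in pair 2.

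Genes of neuronal signalling and adhesion were compared with all tested genes, which themselves had a median of 0.23, with 5563 of 11064 positive in both pairs and 2.57% called higher. Wnt signalling had a median of 0.51 over 57 tested genes, 46 of them positive in both pairs, and 4 rose: Wnt5a, Vangl2, Gsk3b and Csnk1e. Wnt5a, a secreted ligand that acts on axons, was 1.29 and 2.67 FPKM in the YTHDF1 RIP, 4.002 and 8.41 FPKM in the YTHDF2 RIP and 0.811 and 0.849 FPKM in the input. The antibodies did not overlap, and the YTHDF2 RIP was 3.11-fold and 3.15-fold above its partner (1.24 ± 0.33, adjusted p 0.0132). Vangl2, a planar polarity protein, was 3.35 and 9.68 FPKM against 8.21 and 34.6 FPKM, and the kinase Gsk3b 5.498 and 58.8 FPKM against 43.8 and 163 FPKM. The values of both overlapped between antibodies because replicate 2 was the higher of each. Csnk1e, a casein kinase, was 13.9 and 23.4 FPKM against 43.2 and 89.2 FPKM without overlap. After median-of-ratios scaling Wnt5a kept its call (adjusted p 0.041) and the other 3 did not (adjusted p 0.0625 to 0.0838).

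Potassium channels had a median of 0.77 over 23 genes, 22 of them positive in both pairs. The inward rectifiers Kcnj3 and Kcnj10 and the delayed rectifier Kcna1 rose. Kcnj10, which marks glia, was 9.36 and 14.1 FPKM against 20.2 and 67.0 FPKM, Kcna1 was 2.66 and 5.01 FPKM against 4.48 and 19.8 FPKM, and Kcnj3 was 3.56 and 2.65 FPKM against 5.57 and 12.4 FPKM. Pair 2 gave the larger difference in each. Synaptic adhesion genes had a median of 0.67 over 42 genes, 36 of them positive in both pairs, with 1 that rose, Cadm2 (0.695 and 1.499 against 2.27 and 7.78 FPKM). The 38 genes of presynaptic release had a median of 0.32 with 18 positive in both pairs, a smaller share than over all genes, and 3 rose, among them the calcium channel subunit Cacna1b (3.91 and 8.997 against 11.51 and 23.7 FPKM) and the complexin Cplx2 (14.9 and 20.7 against 42.2 and 78.9 FPKM). Both were separated between antibodies. Axon guidance genes had a median of 0.37 over 70, with 47 positive in both pairs, and the ephrin receptor Epha4 (1.27 and 1.65 against 2.82 and 5.98 FPKM) and the Slit-Robo partner Srgap3 (7.46 and 17.4 against 20.7 and 57.2 FPKM) rose. Lists of regulators had medians of 0.59 for 35 Zbtb transcription factors, of which Zbtb16 and Zbtb34 rose, and 0.32 for 43 genes of mTORC1 and its GATOR and Ragulator regulators, of which Wdr59 rose. The calls in the synaptic adhesion, axon guidance and mTORC1 lists (1 of 42, 2 of 70 and 1 of 43) are near the background of 2.57%. No member of these lists fell in limma (unadjusted p under 0.05 in 2 lower members, both of the mTORC1 list). Of the genes named in this paragraph, Cadm2 kept its call in limma after median-of-ratios scaling (adjusted p 0.0203). The others lost theirs (adjusted p 0.0613 to 0.105). Many of the lists hold long transcripts, and relative to the median of genes in the same of the 10 length groups their medians were 0.35 for potassium channels, 0.25 for synaptic adhesion, 0.22 for Wnt signalling, 0.02 for axon guidance and -0.06 for presynaptic release.

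**Figure D5:**
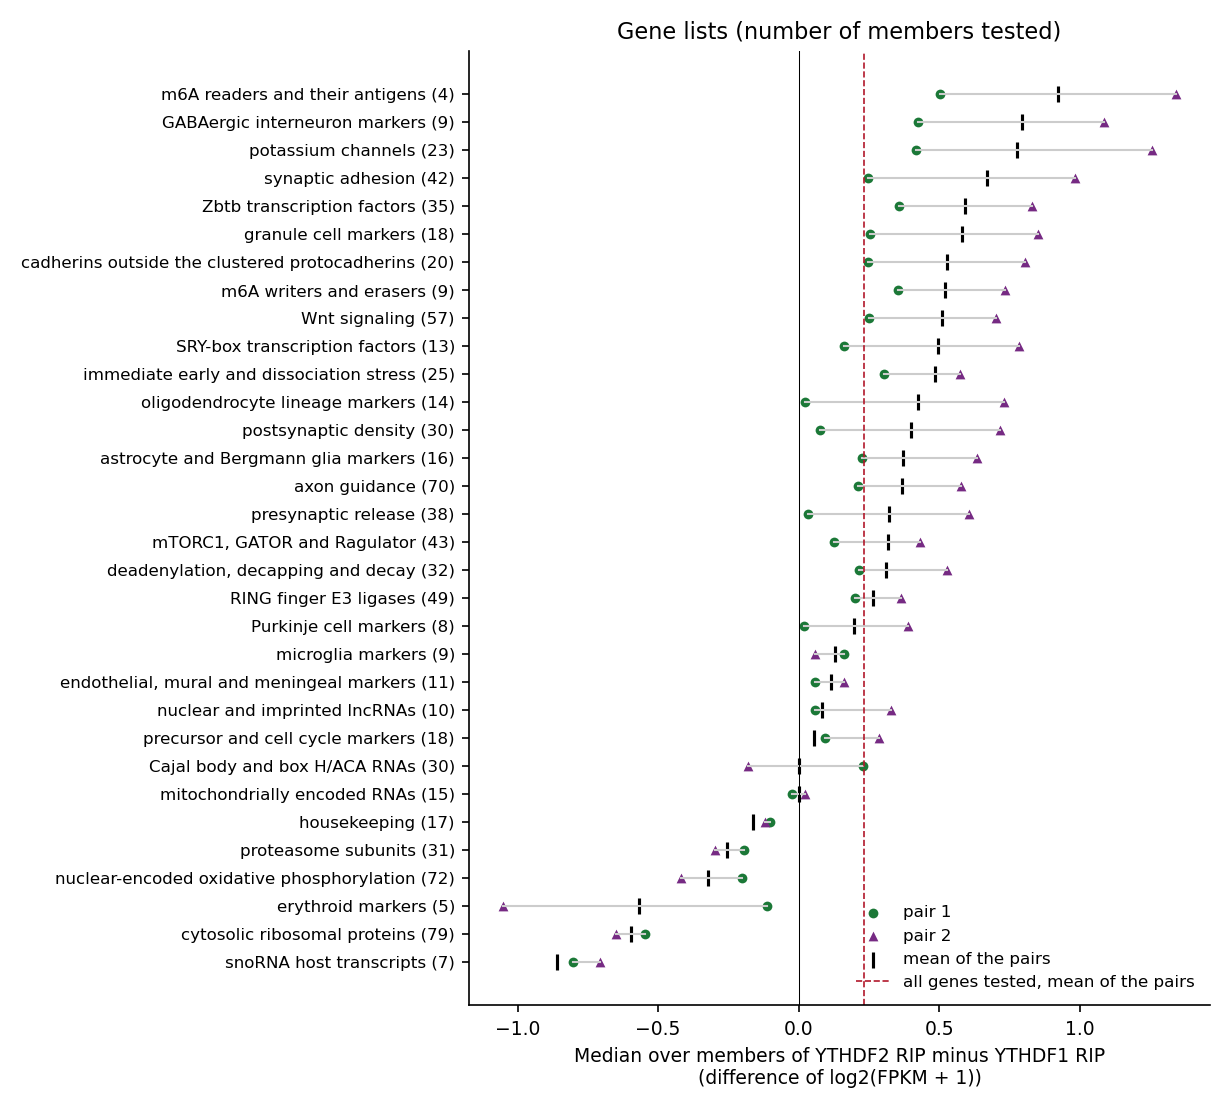
Median over the tested members of each gene list of the difference between YTHDF2 RIP and YTHDF1 RIP on log2(FPKM + 1), in pair 1 (green circles), in pair 2 (purple triangles) and for the mean of the pairs (black bars), with the median of all genes tested, 0.23, as a dashed line. Ribosomal protein and snoRNA host lists lie left of 0 in both pairs, at medians of -0.60 and -0.86, and potassium channels lie to the right at 0.77.

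The mRNAs of the readers were compared as well. Ythdf1 mRNA was 17.8 and 8.00 FPKM in the YTHDF1 RIP and 29.1 and 26.6 FPKM in the YTHDF2 RIP, with 6.65 and 6.74 FPKM in the input. Ythdf2 mRNA was 8.73 and 6.05 FPKM in the YTHDF1 RIP and 11.7 and 18.9 FPKM in the YTHDF2 RIP. Both readers' mRNAs were higher with the YTHDF2 antibody without overlap, as were 22.3% of all genes tested. Ythdf3 gave 6.74 and 10.1 FPKM against 10.9 and 24.4 FPKM, also without overlap. None passed in limma (adjusted p 0.139, 0.194 and 0.225), and 5563 of all 11064 genes were positive in both pairs. The nuclear reader Ythdc1 had no common direction, with -0.14 in pair 1 and 0.43 in pair 2, and Ythdc2 was below the filter. Of 32 deadenylation, decapping and decay genes none passed in limma (unadjusted p under 0.05 in 7 higher and 0 lower). Their median was 0.31, beside 0.23 for all genes.

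Candidate mRNAs of the study had been chosen by overlap of targets called on these same libraries with its knockdown data, so their directions are not independent evidence. Of the 9 tested candidates of YTHDF2 all were positive in both pairs, and Wnt5a, St6galnac5 and Slc6a17 rose. Over all genes 5563 of 11064 were positive in both pairs and 2.57% were called higher. St6galnac5, a sialyltransferase, was 0.519 and 2.34 FPKM in the YTHDF1 RIP and 2.98 and 7.24 FPKM in the YTHDF2 RIP. Slc6a17, a vesicular transporter, was 3.16 and 2.85 FPKM against 4.88 and 11.9 FPKM. Their antibodies did not overlap, and Lrrc10b and Card10 were below the filter. After median-of-ratios scaling St6galnac5 kept its call in limma and Slc6a17 did not (adjusted p 0.0227 and 0.110). Fosl2, Htr1b, Ildr2, Pcdh18, Akna and Peli3 had differences from 0.48 to 0.93 that did not pass.

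The 11 candidates of YTHDF1 were not set apart in the other direction. Their median was 0.63, beside 0.23 for all genes, with 7 positive and 1 negative in both pairs. Dvl1, a scaffold of Wnt signalling, was 3.99 and 3.94 FPKM in the YTHDF1 RIP, 3.12 and 4.09 FPKM in the YTHDF2 RIP and 0.825 and 1.03 FPKM in the input. The RIP values overlapped, and the difference was -0.12 ± 0.34 (adjusted p 0.893). Dohh (3.96 and 4.04 against 3.67 and 2.88 FPKM) was lower in both pairs and Gpat4 (23.2 and 19.5 against 23.2 and 14.7 FPKM) and Camkk2 in pair 2 alone, and none of them passed. Dzank1 was the candidate that passed, and it was higher in the YTHDF2 RIP (0.464 and 2.28 against 1.49 and 6.91 FPKM, adjusted p 0.0381). It lost this call in limma after median-of-ratios scaling (adjusted p 0.065), and 2.57% of all genes were called higher. Adcyap1r1, the receptor of the neuropeptide PACAP, was 27.8 and 60.5 FPKM against 62.6 and 158 FPKM, with differences of 1.14 and 1.37 in the pairs and an adjusted p of 0.207. Dchs1, Numbl and Slc5a3 were also positive in both pairs and did not pass.

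Larger target lists of the study, again chosen on these libraries, gave 86 higher and no lower (unadjusted p under 0.05 in 205 and 0) of the 292 tested genes on its YTHDF2 list alone, 37 higher and no lower (101 and 0) of the 186 on both lists, and 5 higher and 1 lower (16 and 11) of the 215 on its YTHDF1 list alone. Their medians were 0.89, 0.76 and 0.22, beside 0.23 for all genes. For the YTHDF1 list alone the median was -0.02 after median-of-ratios scaling and 0.00 after scaling to nuclear protein-coding genes. Over all genes 2.57% were called higher and 0.723% lower, and the 5 of 215 called higher lie near the first share. Among genes on both lists, Arf3 was 8.95 and 101 FPKM against 80.1 and 286 FPKM, the cell cycle factor E2f1 19.5 and 63.6 FPKM against 102 and 171 FPKM, the clock gene Cry2 4.39 and 10.4 FPKM against 15.2 and 34.1 FPKM and Prr5, a partner of mTORC2, 7.71 and 8.77 FPKM against 28.1 and 32.2 FPKM. The paired differences of Prr5 and Cry2 were alike (1.74 and 1.76, and 1.59 and 1.62), and those of Arf3 were 3.03 in pair 1 and 1.49 in pair 2. After median-of-ratios scaling Prr5 and Cry2 kept their calls in limma, and Arf3 and E2f1 did not (adjusted p 0.0738 and 0.122). The 6 lists from knockdown samples of the study had medians from 0.23 to 0.41. The median was 0.41 for 71 tested mRNAs that were higher after YTHDF2 knockdown (KD), with 3 called higher in the YTHDF2 RIP. It was 0.26 for 106 that were lower after it, with 2 called higher. For genes of 189 proteins higher after YTHDF1 KD it was 0.34, with 7 called higher, and for 123 lower ones 0.23, with 1. For mRNAs after YTHDF1 KD it was 0.38 for 105 higher ones, with 4 called higher, and 0.35 for 103 lower ones, with 5. Beside the 2.57% called higher and 0.723% called lower over all genes, these counts are small and set no list apart among the members tested. Most members of the mRNA lists were not tested. After YTHDF2 KD, 71 of 490 higher and 106 of 328 lower ones were tested, and after YTHDF1 KD 105 of 413 and 103 of 377. In limma none of the 6 KD lists had a gene that fell (unadjusted p under 0.05 in 0 to 2 lower genes of each).

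The marker lists of cell types had medians from -0.57 to 0.80, and no marker was at 0 in all 4 RIP libraries. GABAergic interneuron markers had a median of 0.80 over 9 tested, beside 0.23 for all genes. It was 0.45 relative to the median of genes in the same length group. None of these markers passed in limma (unadjusted p under 0.05 in 6 higher and 0 lower). Their sums over all 11 listed were 42.4 and 39.9 FPKM in the YTHDF1 RIP and 56.4 and 99.4 FPKM in the YTHDF2 RIP. Astrocyte and Bergmann glia markers had a median of 0.37 and sums of 500 and 299 FPKM against 450 and 477 FPKM, and Gja1, a gap junction protein of astrocytes, was 5.12 and 1.14 FPKM against 6.32 and 7.26 FPKM (adjusted p 0.0449). Granule cell markers had a median of 0.58, and Dcx, a microtubule protein of young neurons, rose (4.68 and 14.1 against 10.5 and 66.3 FPKM). These calls were 1 of 16 astrocyte and 1 of 18 granule cell markers, beside 2.57% of all genes called higher. Gja1 and Dcx lost their calls in limma after median-of-ratios scaling (adjusted p 0.141 and 0.0653). Erythroid markers had a median of -0.57 over 5 tested, and sums over all 7 listed of 57.5 and 201 FPKM against 48.6 and 89.5 FPKM. The part of cell make-up in the differences between antibodies was not tested.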

How the data were processed

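The authors deposited 1 FPKM value per gene and library. The study's methods name mapping to GRCm38 with STAR and Cufflinks, whereas Bowtie 0.12.2, mm8 and mm9 appear in the submitters' processing notes, so the mapping behind the table is unsettled. Replicates have separate columns, and the sources used here name no scaling between them. The files used here give no read counts, so depth is unknown and no count test was run. All 6 columns were read. Symbols, classes, lengths and coordinates came from GENCODE release 21 of mouse on GRCm38, in which 15 tested genes had no entry.

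Genes that averaged 1 FPKM or more across the 4 RIP libraries were tested with limma 3.58.1 (R 4.3.3) on log2(FPKM + 1) with the replicate number as a block and an intensity trend (2-sided, Benjamini-Hochberg adjusted p under 0.05). The pseudocount of 1 understates differences of low genes. The prior degrees of freedom were infinite in this fit and finite in several alternatives. They were 6.159 without the block, 11.17 in the 6-library fit with the block and 13.43 with no filter. They were 10.07 after scaling to nuclear protein-coding genes, 15.46 after median-of-ratios scaling and 155.2 after the GC and length correction. The steps were also run on simulated data in which all genes had a common spread. That run could not show false calls among genes whose own pairs disagree. That the numbers pair the samples was taken from the design of the comparison. The correlation of replicate deviations was 0.68 between the RIPs, and -0.15 and -0.14 with input, but with 2 pairs this does not show a shared lysate.

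Genes were named by a rule: the 12 protein-coding and 5 other genes with the largest smaller paired difference in each direction, all reader genes and candidates, and at most 4 members of each list, those past the threshold first. AY036118, mt-Rnr1, mt-Co1, Rnu2-10 and other genes outside the rule were singled out after their values were seen. A few genes that the rule names are not reported here. Genes, lists and tests were chosen with earlier results of these data known. Lists were described by counts and medians with no test. No group had enough samples for a check of outlying values. Alternatives were the fit without the block, the 6-library fits, other pseudocounts, filters and scalings, a GC and length correction and leaving out libraries.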

Additional observations from a re-analysis of the deposited data

How the results depend on the processing

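Against 364 genes past the threshold (284 higher and 80 lower), no gene passed without the replicate block, 1 higher and 0 lower in either fit to 6 libraries, 3 (2 and 1) with no filter on low values, 6 (2 and 4) after scaling to nuclear protein-coding genes, 221 (112 and 109) after median-of-ratios scaling, 560 (484 and 76) after scaling to a common FPKM sum and 467 (427 and 40) with the replicate block and a GC and length correction, while 182 were higher with a mean of at least 5 FPKM. Leaving out single libraries from the 6-library fit with the block gave from 0 to 394 genes, 0 to 318 higher and 0 to 78 lower. Of genes at least 1 log2 unit apart in both pairs (183 higher and 37 lower, 220 in all), a pseudocount of 0.1 gave 460 (392 and 68) and of 5 gave 77 (59 and 18), scaling to nuclear protein-coding genes 92 and 70, median of ratios 83 and 77, and the GC and length correction 10 lower. Of 68 named genes past the threshold, 30 kept their call after median-of-ratios scaling, 3 after scaling to nuclear protein-coding genes, and 68 with a pseudocount of 0.1. The Ythdc1 difference turned to -0.039 after scaling to nuclear protein-coding genes and -0.054 after median-of-ratios scaling. When single libraries or pairs were left out, 4 genes that had not passed changed sign, with ranges of -0.31 to 0.60 for Ythdc1, -0.50 to 0.30 for Camkk2, -0.50 to 0.12 for Gpat4 and -0.27 to 0.043 for Dvl1. The cause of these shifts was not tested. The unknown depth, the single residual degree of freedom and the FPKM of short RNAs limit what the values can show.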
